A study of Mus musculus with 4 samples.

Results

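Cyclins and their closest regulators were followed across the germinal center (GC) reaction in 10 genes, of 31053 in the deposited matrices. The genes were taken as a list of names: the D-type cyclins Ccnd2 and Ccnd3, the E-type cyclins Ccne1 and Ccne2, the A-type cyclin Ccna2, the B-type cyclins Ccnb1 and Ccnb2, the inhibitors Cdkn1b (p27) and Cdkn2c (p18), and the transcription factor E2f1. Each symbol matched 1 row of the matrices, and all 10 had UMIs (unique molecular identifiers, which count captured transcripts rather than reads) in annotated cells of all 4 libraries. The cells were B220+IgD- cells sorted from spleen on day 10 after mice were given sheep red blood cells, and the 3' ends of their transcripts were sequenced in droplets, cell by cell. The mice were female, on a C57BL/6J background and 8 weeks old, and all carried 1 Cγ1-cre allele, which is switched on in activated B cells. WT carried no floxed allele, C carried Crebbp fl/+, K carried Kmt2d fl/+, and CK carried both. Where 4 values are given without names, they follow the order WT, C, K and CK. Each genotype was 1 mouse and 1 library, so differences between genotypes have no replicate check and no test was run. Intervals are 95% intervals that cover counting error only.

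Cyclins activate cyclin-dependent kinases in a fixed order. D-type cyclins respond to growth signals and start the inactivation of the retinoblastoma protein, which frees E2F factors to switch on E-type cyclins and the replication genes. Cyclin A acts through S phase into G2, and cyclin B drives entry into mitosis. In the GC, B cells divide as centroblasts (CB) in the dark zone and are selected as centrocytes (CC) in the light zone. Cyclin D3 is the D-type cyclin known to be needed for dark zone division, and p27 is a marker of resting lymphocytes.

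The deposited annotation named 9804 GC B cells (1227, 2041, 2583 and 3953) in 6 subtypes: early CB, CB, transitional cells between CB and CC (trans), CC, recycling and prememory cells. Median UMIs per annotated cell were 4931, 4053, 4759 and 3653, and whole libraries held 33270825 to 39803865 UMIs. Summed GC markers (Bcl6, Fas, Mef2b, S1pr2 and Rgs13) ran from 1351 to 1718 CPM (UMIs of a gene scaled to a common total of all UMIs in the class) over early CB, CB, trans and CC, and from 114 to 206 CPM in prememory cells, which were therefore low for their GC markers in 4 of 4 libraries. Summed light zone markers were 878 to 1010 CPM in CC and 221 to 274 CPM in CB, whereas summed dark zone markers did not separate the 2 subtypes (622 to 735 and 681 to 769 CPM). Summed T cell receptor markers were at most 50.7 CPM in any GC subtype, against at least 6843 CPM in barcodes with T cell markers. Crebbp was at 68.4, 43.0, 38.6 and 38.0 CPM. Kmt2d was at 18.5, 21.3, 9.85 and 15.1 CPM, so Crebbp was also low in K, which carries no floxed Crebbp allele. These 3' counts need not lie in the deleted exons and do not check the genotypes. Barcodes shared between library pairs numbered 17 to 31.

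The upstream sequence of 3 members is shown because genes of the G2 and M phases are classically driven through CCAAT boxes and a CHR (cell cycle genes homology region, TTTGAA or TTTAAA), while E2F words (TTCCCGC as well as TTGGCGC or TTCGCGC or else TTGCCGC) are known from S phase genes. RefSeq promoter windows (GRCm38.p6) were found for 7 of the 10 genes, and the 250 bases before the start were searched on both strands. Capitals mark every match in the printed bases, which stop at the outermost annotated start and hold no transcribed base.
Ccnb2 (chr9:70421555-70421804, minus strand): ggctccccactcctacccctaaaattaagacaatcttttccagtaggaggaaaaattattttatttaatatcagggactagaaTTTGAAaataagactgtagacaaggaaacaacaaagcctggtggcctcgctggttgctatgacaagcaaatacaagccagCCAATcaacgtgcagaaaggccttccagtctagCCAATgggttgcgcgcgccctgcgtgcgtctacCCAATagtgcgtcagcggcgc
Ccnb1 (chr13:100786571-100786736, minus strand): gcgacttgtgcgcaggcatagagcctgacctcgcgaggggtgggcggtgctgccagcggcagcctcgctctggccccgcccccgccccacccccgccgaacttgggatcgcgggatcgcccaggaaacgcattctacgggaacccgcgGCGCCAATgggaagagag
Cdkn1b (chr6:134920151-134920400, plus strand): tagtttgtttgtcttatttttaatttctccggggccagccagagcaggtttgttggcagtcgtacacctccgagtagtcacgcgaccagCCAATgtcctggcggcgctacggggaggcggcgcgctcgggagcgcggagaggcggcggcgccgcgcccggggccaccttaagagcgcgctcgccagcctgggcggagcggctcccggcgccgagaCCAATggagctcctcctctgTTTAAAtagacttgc

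Ccnb2 held 3 CCAAT boxes, beginning 87, 54 and 21 bases before the RefSeq start, at even spacing, and 1 CHR word 167 bases before it. At least 3 CCAAT matches were present in 2.79% of 32851 promoters. Ccnb1 held CCAAT boxes 99 and 67 bases before its start and a TTTAAA word at 42, of which only the most distal CCAAT lies outside the annotated transcript and is printed. That box overlaps an E2F word beginning at 102, a motif class present in 7.89% of promoters. Cdkn1b, shown as a member with a different profile across subtypes, also held 2 CCAAT boxes, at 161 and 35, and a TTTAAA word at 15. A pair of CCAAT boxes with at least 1 CHR word was found in 2.36% of promoters. Among the windows not shown, those of E2f1, Ccne1 and Ccnd3 held no E2F word, and 1 window of Cdkn2c held an E2F word at 25. Ccne1 held a TTTAAA word at 15, and 1 window of Ccnd3 held a CCAAT box at 108. The matches describe letters only, and binding was not measured.

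Across the GC subtypes the members fell into separate sets of levels in all 4 libraries. Ccne1, Ccne2 and E2f1 peaked in early CB, Ccna2, Ccnb1 and Ccnb2 peaked in CB, Ccnd3 was high in every GC subtype before prememory, and Ccnd2 and Cdkn1b peaked in prememory cells. The subtypes, scores and pseudotime were made by the authors from the expression of these same cells, so these levels are a description and no test was applied. Tags of 3' ends count transcripts without regard to their length, so the CPM of different genes do not depend on it. Other differences in capture between genes were not checked.

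**Figure D1:**
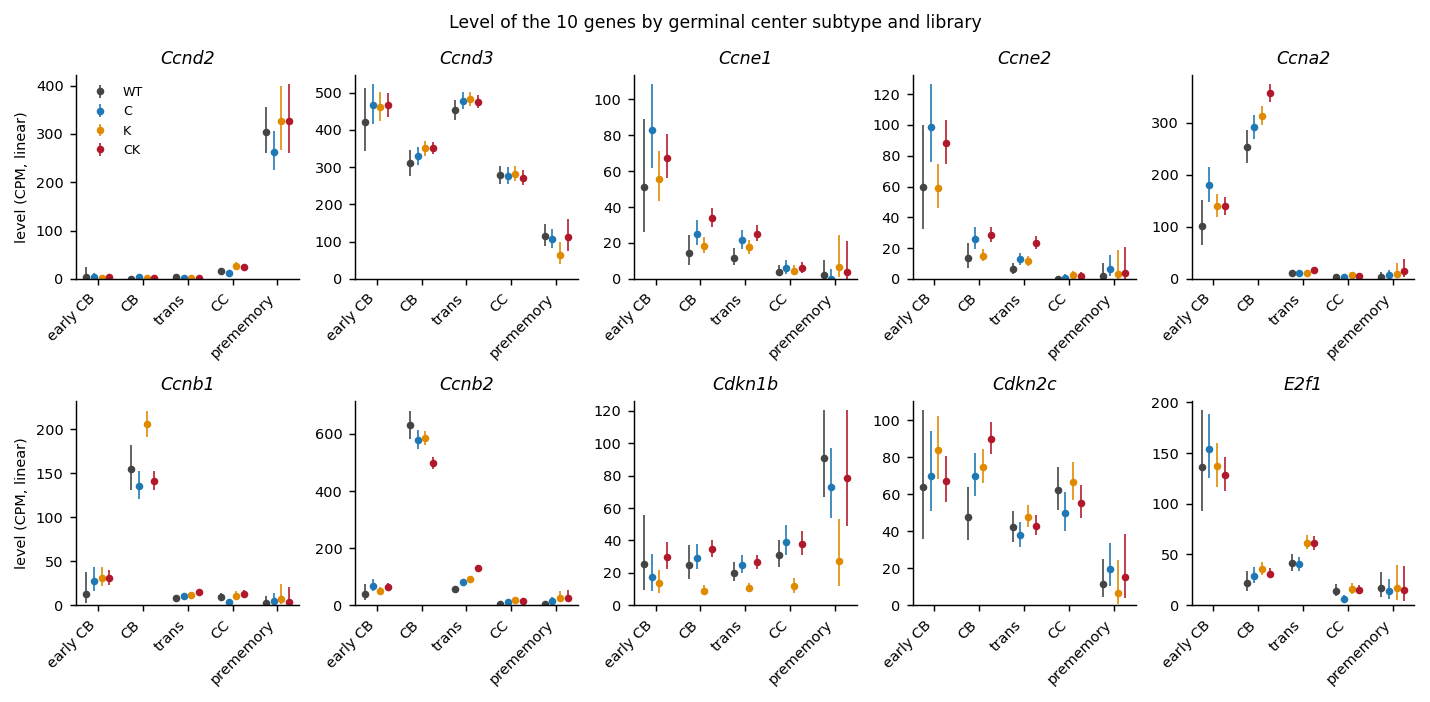
Level of each gene (CPM, linear axis from 0) in 5 subtypes, 1 point per library with its exact Poisson interval; recycling cells (8 to 49 per library) are left out. Ccnb2 in CB lies between 497 and 630 CPM and in CC between 4.92 and 18.4 CPM, and Ccnd2 in prememory cells lies between 263 and 328 CPM, above its other subtypes.

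Ccnd3 (chr17:47505051-47599691, plus strand), the D-type cyclin of dividing GC B cells, was the member with the most UMIs in annotated cells, 16307 in all. In trans cells it was at 454, 478, 482 and 475 CPM, and in early CB at 421, 468, 462 and 465. CB were lower, at 310, 329, 350 and 351 CPM. CC were lower again in every library, at 278, 277, 282 and 271 CPM. In prememory cells Ccnd3 was at 115, 106, 64.2 and 113 CPM, below the other subtypes. Barcodes with T cell markers held 245 to 291 CPM, so Ccnd3 was not particular to the GC among these barcodes.

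Ccnd2 (chr6:127125162-127152193, minus strand), a D-type cyclin that lymphocytes use on first activation, had its lowest levels in early CB, CB and trans cells and its highest in prememory cells. It was not detected in WT CB, where a count of 0 allows up to 3.12 CPM, and CB of C, K and CK held 2.89, 2.27 and 1.91 CPM. In CC it was at 16.4, 12.2, 27.2 and 23.6 CPM. Prememory cells held 305, 263, 328 and 327 CPM, with intervals that lay above those of CC in each library. Barcodes with T cell markers held 185 to 238 CPM and unannotated barcodes with B cell markers 48.0 to 66.1 CPM. In K the S-leading CC, 55 cells, held 132 CPM of Ccnd2, whereas S-leading CC of the other libraries held 0 to 19.8 CPM.

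The E-type cyclins, which start replication, were sparse. Ccne1 (chr7:38097984-38107534, minus strand) was at 51.0, 82.7, 55.9 and 67.6 CPM in early CB. In CB it was at 14.5, 25.01, 18.5 and 33.8 CPM, in trans cells at 11.8, 21.5, 17.5 and 25.3, and in CC at 3.83, 5.84, 4.39 and 5.91. The CC level lay below that of T-marker barcodes (9.01 to 14.2 CPM) in 4 of 4 libraries. Ccne2 (chr4:11191351-11204779, plus strand) was at 59.5, 98.6, 59.2 and 88.3 CPM in early CB and at 13.5, 26.0, 15.1 and 28.2 CPM in CB. Ccne2 reached at most 2.397 CPM in CC, where WT had no UMI.

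E2f1 (chr2:154559407-154569892, minus strand), the activator that drives the E-type cyclins and replication genes, was at 136, 154, 137 and 128 CPM in early CB. It differed from the E-type cyclins in trans cells, which held more E2f1 than CB in every library. Trans cells were at 41.6, 40.1, 61.7 and 61.1 CPM, and CB at 21.8, 28.9, 35.8 and 31.2 CPM. CC held 14.2, 5.84, 16.0 and 14.8 CPM.

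Ccna2 (chr3:36564865-36572150, minus strand), cyclin A of S and G2 phase, was at 254, 291, 313 and 357 CPM in CB. Early CB held less, at 102, 180, 140 and 139 CPM. In trans cells it was at 11.01, 11.8, 11.2 and 16.1 CPM, within the range of T-marker barcodes (9.20 to 32.2 CPM). Ccnb1 (chr13:100778650-100786570, minus strand), cyclin B1, followed the same order with a larger step into CB. It was at 155, 136, 206 and 142 CPM in CB, at 12.8, 27.0, 31.3 and 30.4 CPM in early CB, and at 7.75 to 14.7 CPM in trans cells. In CC both were low, Ccna2 at 3.19 to 6.79 CPM and Ccnb1 at 3.19 to 12.2 CPM.

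Ccnb2 (chr9:70407692-70421547, minus strand), cyclin B2, was at 630, 580, 585 and 497 CPM in CB. In trans cells it was at 55.5, 80.0, 90.0 and 132 CPM, with intervals above those of the T-marker barcodes in all 4 libraries. Ccnb1 in trans cells was also above T-marker barcodes (6.19, 3.81, 6.72 and 7.51 CPM) in 4 of 4 libraries, with intervals apart in C and CK. In CC Ccnb2 was at 4.92, 10.6, 18.4 and 15.5 CPM, below the 21.9, 13.9, 19.5 and 30.1 CPM of T-marker barcodes in the same 4 libraries. The intervals overlapped in C, on 20 against 40 UMIs, and in K, on 46 against 55 UMIs. T-marker barcodes may include dividing cells, since 7 other G2 and M phase genes (Top2a, Mki67, Hmmr, Nusap1, Tpx2, Cenpf and Birc5) summed to 103 to 277 CPM in them and to 100.3 to 174 CPM in CC. Free RNA was not measured.

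Cdkn1b (chr6:134920401-134925513, plus strand), which holds cells in G1 as p27, was low in GC subtypes and high outside them. In WT it was at 24.9 CPM in CB, 19.98 in trans cells, 31.2 in CC and 90.9 in prememory cells. The corresponding levels were 29.3, 24.8, 39.3 and 73.0 CPM in C, and 34.6, 26.7, 37.7 and 78.8 CPM in CK. K stood apart, with 8.81, 10.6, 11.6 and 27.0 CPM. Cdkn2c (chr4:109660876-109667189, minus strand), which blocks the kinases of D-type cyclins, differed less between CB, trans cells and CC than the A- and B-type cyclins did. CB held 47.8, 69.7, 74.7 and 89.8 CPM of it, trans cells 42.0, 37.8, 47.9 and 43.0 CPM, and CC 62.3, 49.9, 66.3 and 55.4 CPM. It was lowest in prememory cells, at 11.4, 19.8, 6.76 and 15.01 CPM, so the 2 inhibitors took opposite orders between CC and prememory cells.

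Centrocytes were set against centroblasts within each library, counting members at least 1.5-fold apart among genes with 20 or more UMIs. In WT 1 of 9 members tested was higher and 5 were lower in CC, where 15.2% and 22.4% of all genes tested were (37.7% in either direction). In C the counts were 1 and 6 of 10, against 14.3% and 19.3% (33.6%). K gave 1 and 6 of 10, against 14.2% and 20.7% (34.9%). CK gave 1 and 7 of 10, against 16.8% and 17.4% (34.2%). Ccnb2 had a log2 ratio of CC over CB of -7.00 (-8.14 to -6.07), -5.77, -4.99 and -5.00. Ccna2 lay between -6.52 and -5.53. Ccnd2 was the member higher in CC in all 4 libraries, 4.23-, 11.9- and 12.4-fold in C, K and CK. In WT it was 5.26-fold with CB set at 3 counts in place of 0, and the lower limit of its log2 ratio was 2.007. With the cells above the annotation's limit of 2500 genes added, Ccnd2 was 6.25-, 2.39-, 6.80- and 4.88-fold higher, and Ccnb2 in WT had -5.57. Weighted by score class, the log2 ratios of Ccnd2 were 1.63, 0.69, 4.88 and 4.72. That weighting left out classes with under 10 cells on either side. Here this removed the G2M-leading class defined below, with 0, 3, 0 and 8 CC. The class held 77.6%, 76.2%, 74.4% and 75.1% of CB, so the weighted ratios cover only the remaining CB. Of 51 other cell cycle genes, 42 to 47 were tested and 25 to 30 were lower in CC, with 2 higher in WT and 0 in C, K and CK. Their median log2 ratio ran from -1.19 to -0.78, where that of all genes ran from -0.13 to -0.02. Among them Cdc20, the activator of the anaphase-promoting complex, had log2 ratios of -5.91, -6.22, -5.59 and -4.98. Cdk1, the kinase partner of cyclin B, had -4.28, -4.82, -4.75 and -5.03.

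The authors' S and G2M module scores divided the cells further. A cell was called S-leading or G2M-leading by the higher score above 0, and neither where both were at or below 0. Classes cut from a score are ranges, and 42, 74, 109 and 201 cells of WT, C, K and CK lay within 0.02 of a limit. The genes behind the scores are not given in the sources used here, but the G2M and S lists in wide use hold Ccnb2 and Ccne2. After every cell was thinned to 2000 UMIs, cells with a Ccna2 UMI had a mean G2M score 0.591, 0.587, 0.529 and 0.555 higher than cells without one. For Ccnb1 the difference was 0.443, 0.534, 0.502 and 0.460, with an S score lower by at most 0.0609. Cells with a Ccne2 UMI had an S score 0.477, 0.453, 0.358 and 0.368 higher, and E2f1 followed with 0.209, 0.341, 0.229 and 0.253. Ccnd3, found in 540 of 1183 WT cells at this depth, went with almost no difference in either score.

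**Figure D2:**
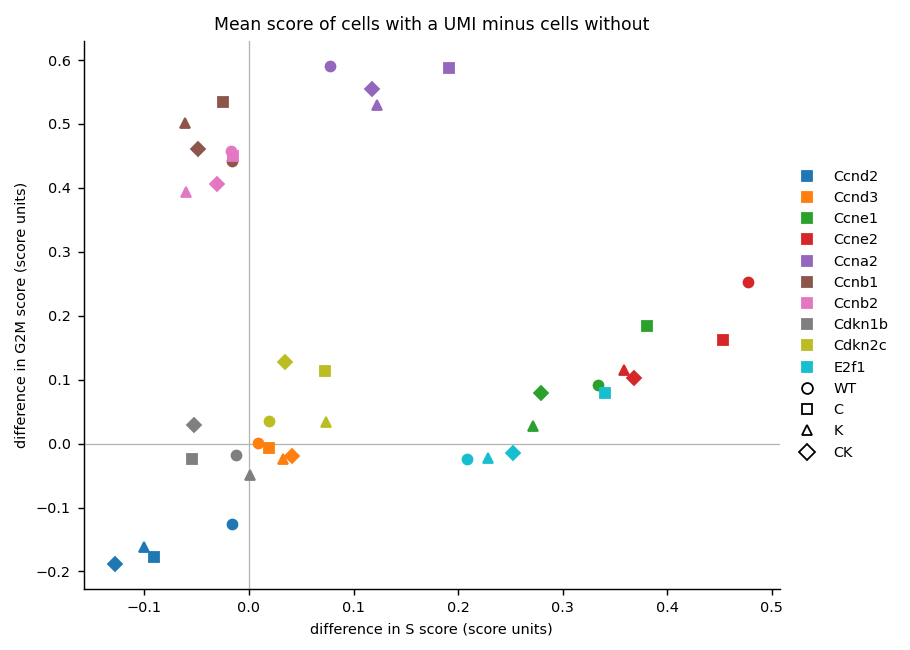
Mean S score (x axis) and G2M score (y axis) of cells with a UMI of a gene minus the mean of cells without, in score units, after thinning to 2000 UMIs; color gives the gene and shape the library. Ccna2, Ccnb1 and Ccnb2 lie at G2M differences from 0.393 to 0.591, Ccne1, Ccne2 and E2f1 at S differences from 0.209 to 0.477, and Ccnd3 near 0 on both axes.

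Within single thinned cells the members were detected together in the same order. In CK, Ccnb1 was found in 22.0% of cells with a Ccna2 UMI (18.7% to 25.7%) and in 5.62% of cells without one. Ccnb2 was found in 51.3% and 18.7% of these cells. The shares for Ccnb1 were 27.5% and 3.45% in WT, 17.3% and 3.54% in C, and 30.4% and 6.81% in K. By contrast E2f1 was found in 6.51% of CK cells with a Ccnb2 UMI and in 9.55% of those without. T-marker barcodes at the same depth held a Ccnb1 UMI in 0.414% to 1.11% of cells.

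Ccnb2 and its partners came apart in CB with neither score leading. These were 23, 34, 58 and 68 cells. Ccnb2 was at 347, 457, 469 and 422 CPM in them. Ccna2 was at 16.9, 14.5, 3.88 and 39.1 CPM, and Ccnb1 at 16.9, 7.26, 3.88 and 26.1 CPM. In G2M-leading CB all 3 were high, with Ccna2 at 299 to 400 CPM, Ccnb1 at 169 to 266 CPM and Ccnb2 at 588 to 738 CPM. After thinning, 43.5% to 63.6% of neither-leading CB held a Ccnb2 UMI, against 1.48% to 4.01% of T-marker barcodes. Ccnd3 was at 392 to 507 CPM and Cdkn2c at 0 to 13.0 CPM in the same cells. Leaving out cells within 0.02 of a limit, an alternative chosen after seeing the data, gave 341 to 430 CPM of Ccnb2 and at most 36.2 CPM of Ccna2.

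**Figure D3:**
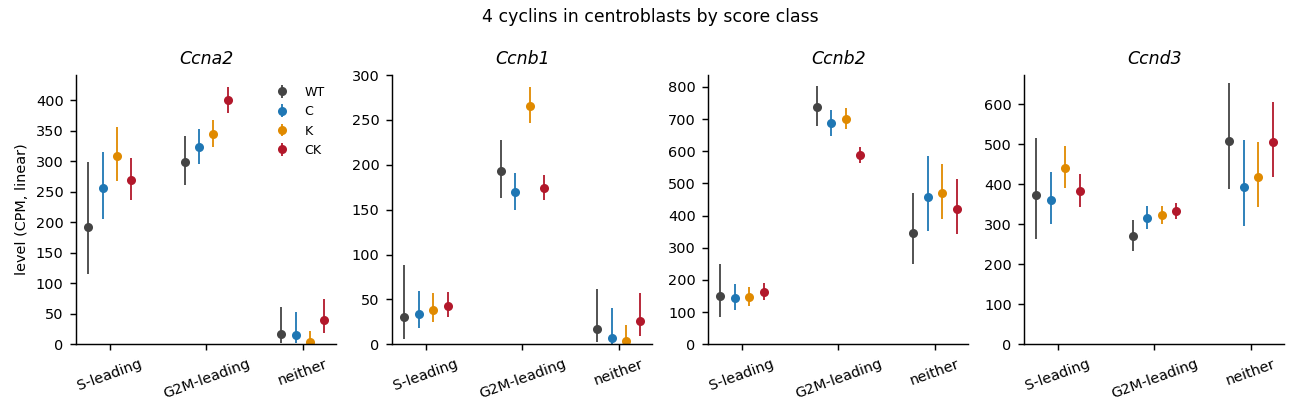
Level of 4 cyclins (CPM, linear axis from 0) in CB of each score class, 1 point per library with its exact Poisson interval. In the neither class Ccnb2 stays between 347 and 469 CPM while Ccna2 and Ccnb1 are at most 39.1 and 26.1 CPM.

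S-leading cells likewise differed by subtype. S-leading trans cells, 171, 329, 559 and 860 in number, held E2f1 at 86.2, 64.8, 89.9 and 87.9 CPM. Their Ccna2 was only 12.6, 18.9, 12.4 and 19.4 CPM, whereas S-leading early CB held 102, 177, 135 and 134 CPM and S-leading CB 192, 256, 309 and 270 CPM. Ccne1 took intermediate values in S-leading trans cells, at 23.1, 37.7, 26.2 and 34.5 CPM, against 51.0 to 85.1 CPM in S-leading early CB. An S-leading score in trans cells thus went with high E2f1 while Ccna2 stayed in the range of T-marker barcodes.

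Along pseudotime, cells were placed by the number of WT cells before them and cut into 10 bins, from the CB end (bin 1) to the prememory end (bin 10). Bin 1 held 123, 377, 551 and 1119 cells, and 58.5% to 60.6% of these were CB. Ccna2 dropped from 241, 280, 301 and 291 CPM in bin 1 to 42.5, 42.1, 29.1 and 39.7 CPM in bin 3. Ccnb2 declined later, from 358, 311, 292 and 307 CPM in bin 1 to 226, 181, 252 and 229 CPM in bin 3. In C and K it was highest in bin 2, at 340 and 333 CPM, before it fell. By bin 4 Ccnb2 was at 101 CPM in WT and at 223, 220 and 184 CPM in C, K and CK. The make-up of bin 4 also differed, with 15.4%, 28.1%, 26.1% and 24.3% CB. G2M-leading cells were 8.13%, 19.8%, 16.7% and 16.4% of it, and the part of this make-up in the Ccnb2 difference was not tested. E2f1 remained at 50.3 to 83.9 CPM in bin 2 and 22.7 to 55.3 CPM in bin 3.

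At the other end Ccnd2 climbed to 170, 142, 107 and 67.4 CPM in bin 10. Prememory cells made up 71.5%, 61.3%, 32.7% and 21.3% of bin 10, and within prememory cells Ccnd2 was not lower in K or CK, as given above. Cdkn1b reached 87.8, 76.7, 23.4 and 75.5 CPM in bin 10. Ccnd3 was at 170, 169, 218 and 244 CPM there, its lowest bin in every library. Cdkn2c had its highest level in bin 1 in all 4 libraries, 73.0 to 100 CPM, and was back at 57.3 to 77.1 CPM in bin 8.

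**Figure D4:**
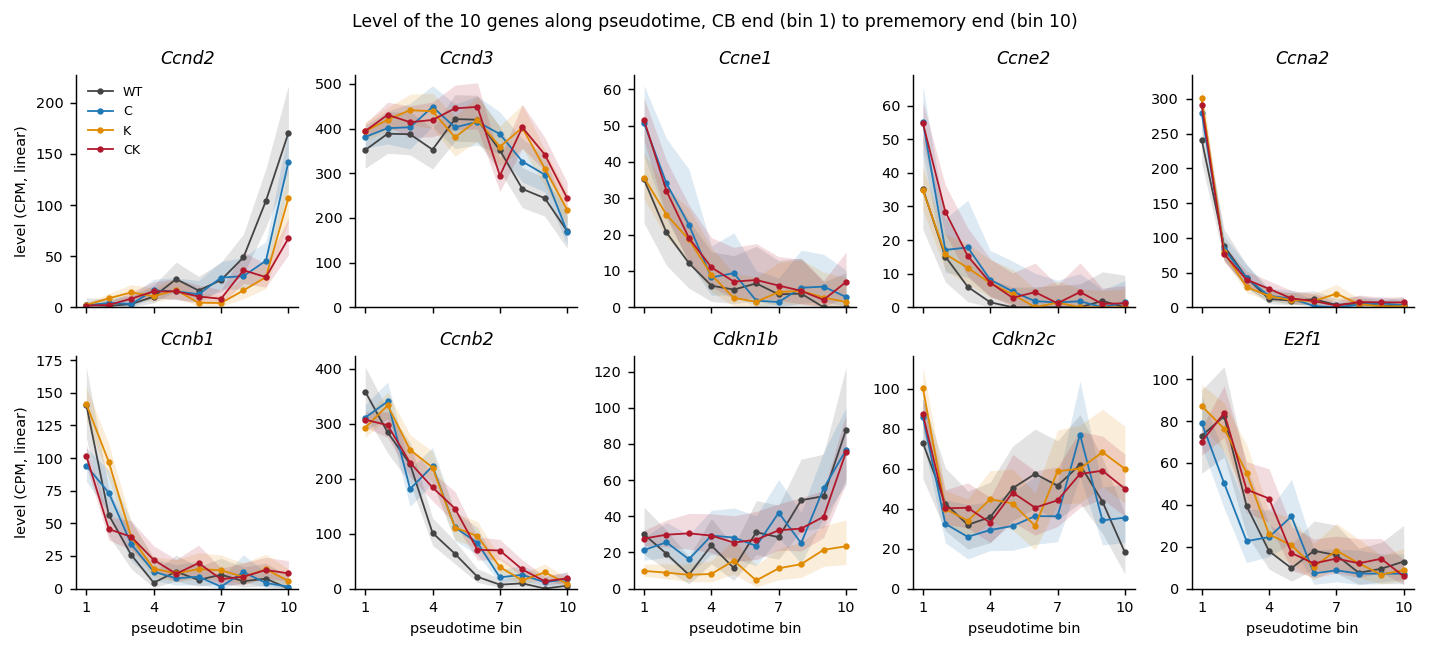
Level of each gene (CPM, linear axis from 0) in 10 pseudotime bins, 1 line per library with a band for the exact Poisson interval. Ccna2 is at 241 to 301 CPM in bin 1 and at most 42.5 CPM in bin 3, while Ccnb2 is still at 181 to 252 CPM in bin 3.

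The genes whose pattern was most like that of each member were sought over 40 points, 10 bins in each of 4 libraries, among 6500 genes with at least 500 UMIs in annotated cells. The points share libraries and a common depth gradient along the bins, and Pearson's r of log2(CPM + 10) is given as a description. E2f1 was most like Pcna (0.95), Fen1 (0.94) and Mcm5 (0.93), which act in DNA replication. Ccne1 was most like Asf1b (0.96), Pclaf (0.96) and Ccne2 (0.95), and Ccne2 like Pclaf (0.97), Tubb5 (0.96) and Asf1b (0.96). Ccna2 was closest to Nuf2 (0.97), Pclaf (0.96) and Kif2c (0.96), and Ccnb1 to Ube2s, Tubb4b and Uhrf1 (0.95, 0.95 and 0.94). Ccnb2 was closest to Hmgb2, Stmn1 and Mcm2 (0.97, 0.96 and 0.96). Ccnd2 was most like Capg, Shisa5 and Ly6d (0.93, 0.92 and 0.92), and Ccnd3 like Csrp2, Anxa2 and Top1 (0.93, 0.93 and 0.92). The inhibitors had weaker neighbors, Hsp90b1, Dmxl1 and Rel for Cdkn1b (0.89, 0.86 and 0.86) and Cdkn2d, Pbk and Ucp2 for Cdkn2c (0.65, 0.61 and 0.60).

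Mutant libraries were set against WT within CB, trans and CC, which makes 9 comparisons that share the WT library. The annotation ends below 2500 genes per cell, and this limit moves the members in CB. Cells above it that resembled CB were 72.2%, 49.0%, 43.6% and 31.7% of all CB-labelled cells. In WT, CB above the limit held more Ccna2 than annotated CB (387 and 254 CPM), more Ccne1 (31.8 and 14.5 CPM) and less Ccnb2 (381 and 630 CPM). Ratios are therefore given for annotated cells and again with the cells above the limit added. Labels of cells above the limit are approximate, since 86.5% of annotated CB and 91.7% of trans cells were given back their own label by the same procedure.

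In CK against WT, Ccne1, Ccne2 and Cdkn2c were past 1.5-fold in CB, all higher, 3 of 9 members tested, where 11.5% of all genes tested were higher and 12.0% lower (23.5%). From 14.5 CPM in WT to 33.8 CPM in CK, Ccne1 had a log2 ratio of 1.21 (0.43 to 2.12). Ccne2 had 1.06 (0.24 to 2.01) and Cdkn2c 0.91 (0.47 to 1.38). Ccna2 had 0.49 (0.30 to 0.69) and Ccnb2 -0.34 (-0.47 to -0.21). With the cells above the limit added, 0 members were past the fold, where 9.58% of all genes were. Ccne1 then had 0.32 (0.08 to 0.57), Ccne2 0.25 (-0.01 to 0.51) and Cdkn2c 0.30 (0.14 to 0.46), while Ccna2 had 0.01 and Ccnb2 0.04.

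In trans cells of CK, 4 of 9 members were past the fold, all higher, where 7.97% of all genes tested were higher and 7.48% lower (15.5%). From 6.12 CPM in WT to 23.3 CPM in CK, Ccne2 had a log2 ratio of 1.93 (1.16 to 2.81). Ccnb2 had 1.25 (0.98 to 1.52), Ccne1 1.10 (0.51 to 1.72) and Ccnb1 0.93 (0.20 to 1.73). With added cells 2 members were past the fold (9.61% of all genes), 1 higher and 1 lower (4.34% and 5.28%). The lower member was Ccnd2, at -0.80 (-1.74 to 0.12). Ccne2 was at 0.84 (0.46 to 1.23), while Ccnb2 had 0.42 (0.28 to 0.57), Ccne1 0.36 (0.02 to 0.70) and Ccnb1 0.29 (-0.12 to 0.71). S-leading cells were 171 of 471 trans cells in WT and 860 of 1498 in CK. Weighted to the WT shares of the S-leading and neither classes, Ccnb2 in trans cells had a log2 ratio of 0.83. G2M-leading trans cells, 9 in WT and 38 in CK, were left out of that value because WT held under 10. Under the same weighting E2f1 went from 0.55 to -0.097. In CC of CK, 3 of 9 members were higher and 0 lower (7.17% and 5.66% of all genes, 12.8% in either direction), namely Ccnb2, Ccne1 and Ccna2 at 1.66, 0.63 and 0.63, each on 7 to 9 UMIs in WT and at levels below those of T-marker barcodes. With added cells they had 0.89, -0.53 and -0.21, so Ccne1 and Ccna2 changed direction.

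In K against WT the median log2 ratio of all genes was -0.15 in CB, -0.14 in trans cells and -0.14 in CC, so members are read against that shift. Cdkn1b was the only member past 1.5-fold in CB, trans cells and CC, and was lower in each. Its log2 ratio was -1.50 in CB (-2.32 to -0.67), -0.91 in trans cells (-1.49 to -0.32) and -1.43 in CC (-2.13 to -0.76). With added cells it was -1.77, -1.28 and -1.49. The same library held less Cdkn1b outside the GC. Barcodes with T cell markers were at 169, 178, 57.7 and 189 CPM. Unannotated barcodes with B cell markers were at 180, 170, 52.0 and 174 CPM. The log2 ratio of K over WT was -1.55 in T-marker barcodes (-1.82 to -1.29), where 1.91% of 9203 genes had a lower ratio, and -1.79 in B-marker barcodes (-2.05 to -1.54). Cγ1-cre is not meant to act in T cells, and the part of the library in the GC difference was not tested.

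Counting all members in K, 2 of 9 were higher and 1 lower in CB, where 7.45% and 23.2% of all genes were (30.7%). In trans cells 2 of 9 were higher and 1 lower, where 5.13% and 22.7% were (27.9%). In CC 3 of 8 were higher and 1 lower, where 4.60% and 22.6% were (27.2%). In CB these were Cdkn1b, E2f1 at 0.71 (0.04 to 1.46) and Cdkn2c at 0.64 (0.19 to 1.13), and with added cells E2f1 had 0.03 and Cdkn2c 0.34, while Ccne2 went from 0.16 to -0.91 (-1.23 to -0.60). In trans cells they were Cdkn1b, Ccne2 at 0.90 and Ccnb2 at 0.70, which had 0.07 and 0.06 with added cells. Relative to the median of all genes, 5 members were higher and 1 lower in trans cells, in place of 2 and 1. The share of all genes was not counted under that scaling, so these counts have no background. In CC they were Cdkn1b, Ccnb2 at 1.90, Ccna2 at 0.83 and Ccnd2 at 0.73, of which Ccnd2 had -0.35 and Ccna2 -0.18 with added cells. Ccnb1 in CB of K was 206 CPM against 155 CPM in WT, a log2 ratio of 0.41 (0.15 to 0.67), and stayed at 0.31 (0.21 to 0.41) with added cells.

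In C against WT, 2 of 9 members were higher and 0 lower in CB, where 8.79% and 8.18% of all genes were (17.0%). In trans cells 2 of 9 were higher and 0 lower, where 5.10% and 5.27% were (10.4%). In CC 1 of 7 was higher and 2 lower, where 5.71% and 5.82% were (11.5%). Ccne1 and Ccne2 made up the first 2 sets, at 0.78 (-0.09 to 1.75) and 0.94 (0.05 to 1.94) in CB and at 0.86 (0.23 to 1.54) and 1.05 (0.18 to 2.01) in trans cells. With added cells they had -0.13 and -0.12 in CB and 0.33 and 0.37 in trans cells. In CC of C, E2f1 was at 5.84 CPM against 14.2 CPM in WT, a log2 ratio of -1.28 (-2.45 to -0.22) that was -1.31 (-2.20 to -0.48) with added cells. Ccnb1 had -1.46 and Ccnb2 1.11 in these cells, on 6 and 20 UMIs in C. Ccnd2 in CC of C had -0.43 (-1.28 to 0.41), and -0.96 (-1.54 to -0.41) with added cells. Ccnd3 varied least, with log2 ratios from -0.04 to 0.18 over the 9 comparisons.

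**Figure D5:**
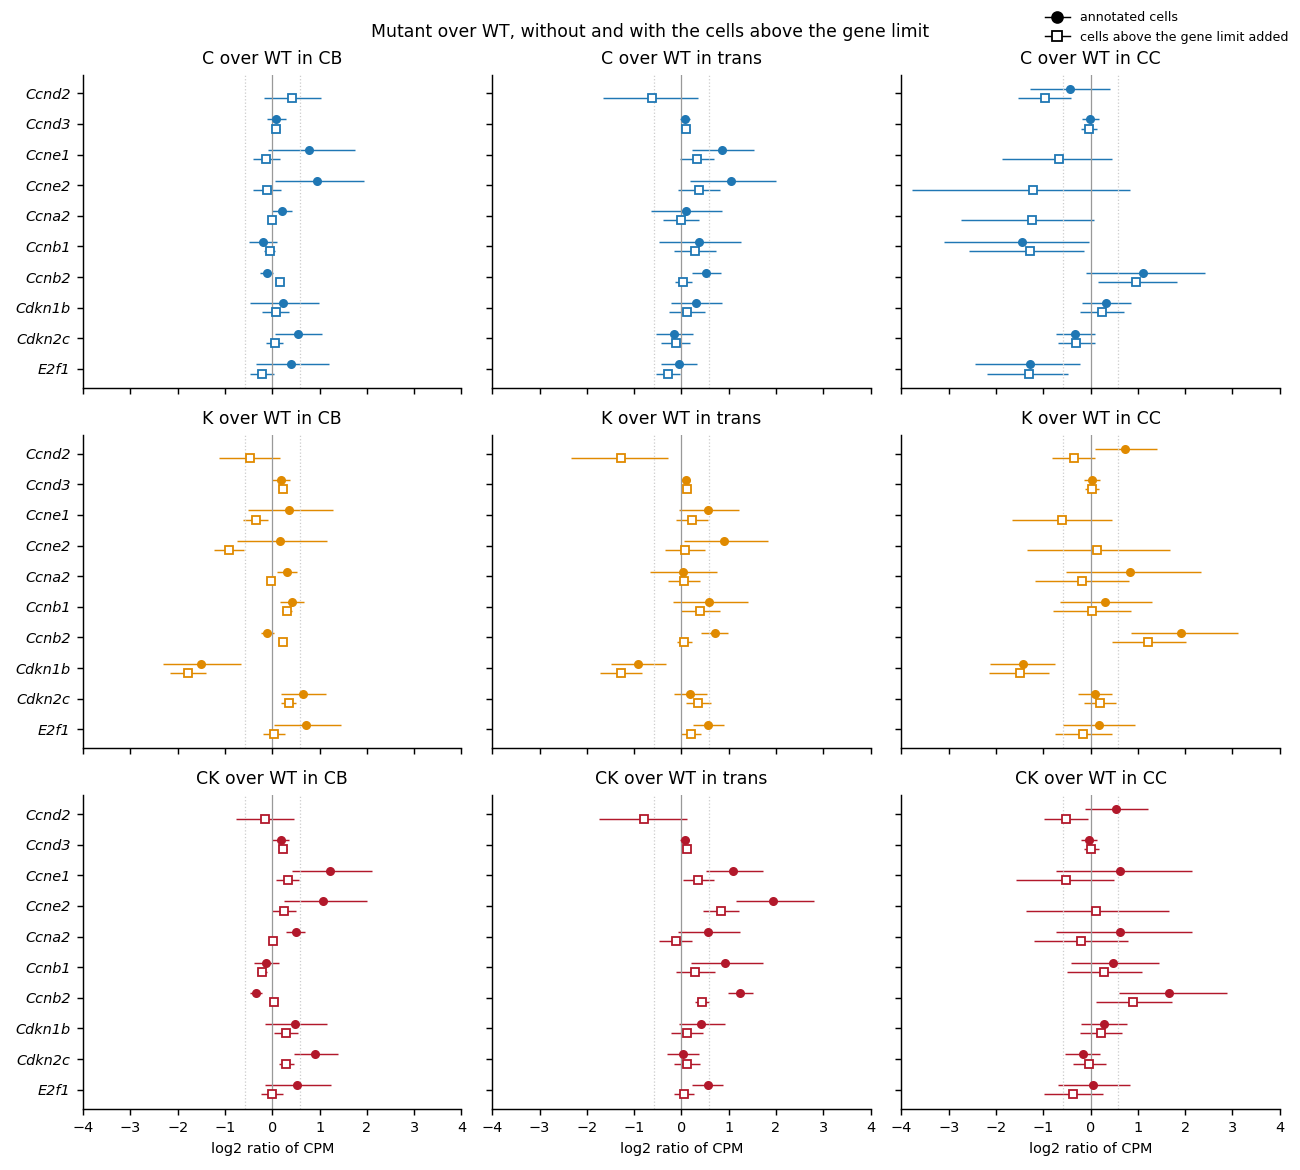
Log2 ratio of CPM of each mutant library over WT (x axis) for the members with UMIs in both libraries, with exact binomial intervals; filled circles are annotated cells with 20 or more UMIs and open squares include cells above the gene limit. Dotted lines mark 1.5-fold. Cdkn1b lies below 0 in all 3 panels of K (-1.50, -0.91 and -1.43), and Ccne1 in CB of CK moves from 1.21 to 0.32 when cells are added.

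Other genes of the cycle were counted in the same way. Of 51 listed, 48 were tested in CB of CK against WT, and 17 were higher and 4 lower, where 11.5% and 12.0% of all genes were. Their median log2 ratio was 0.21, against -0.04 for all genes. Rb1, which restrains E2F factors, was the highest of those with at least 50 UMIs, at 1.98. The repressor E2f8 followed at 1.75 and Cdk1 at 1.33, and Cdc20 was the lowest at -0.71. With added cells 3 were higher and 0 lower of 49 (3.63% and 5.95% of all genes), with values of 0.23 for Rb1, 0.27 for E2f8, 0.21 for Cdk1 and -0.21 for Cdc20. In trans cells of CK 13 of 45 were higher and 0 lower (7.97% and 7.48% of all genes), and 5 of 46 were higher and 0 lower with added cells (4.34% and 5.28%). In CC of CK 6 of 40 were higher and 2 lower (7.17% and 5.66%), and 2 and 3 of 41 with added cells (4.80% and 6.12%). In CB of K 11 were higher and 10 lower of 46 (7.45% and 23.2% of all genes), and 3 and 8 of 49 with added cells (2.19% and 21.6%). In trans cells of K 10 were higher and 5 lower of 44 (5.13% and 22.7%), and 6 and 6 of 46 with added cells (2.67% and 22.1%). In CC of K 7 were higher and 5 lower of 39 (4.60% and 22.6%), and 2 and 12 of 41 with added cells (2.82% and 23.2%). In CB of C 11 were higher and 3 lower of 46 (8.79% and 8.18%), and 0 and 0 of 48 with added cells (2.90% and 4.35%). In trans cells of C 3 were higher and 0 lower of 43 (5.10% and 5.27%), and 4 and 0 of 46 with added cells (3.63% and 4.16%). In CC of C 2 were higher and 3 lower of 36 (5.71% and 5.82%), and 0 and 4 of 41 with added cells (4.65% and 6.27%).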

How the data were processed

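Per the labels, sorted splenic B220+IgD- cells of 4 genotypes were analyzed, with 1 library each. The authors counted UMIs with Cell Ranger (3.0 in the submitters' processing notes, 3.0.2 in the file headers; build mm10), and the deposited matrices hold raw counts. The deposited cell table holds the authors' Seurat 4.0 subtype names, module scores, a pseudotime rank used here as a score, and the percent of mitochondrial UMIs. All 9804 cells matched a barcode. The table ends below 2500 genes and 8% mitochondrial UMIs.

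Counts were summed per library and class as CPM, with exact Poisson intervals, exact Clopper-Pearson intervals for shares and exact conditional binomial intervals for ratios. They cover counting error only. A count of 0 was set at 3 counts in ratios. Genes with 20 UMIs over both sums entered fold counts. Cells above the limit took the most frequent label of 25 neighbors, and 83.7% of annotated cells were labelled back correctly. Scrublet (scanpy 1.11.5) was run per library, and the cells it called, 1.39% to 4.02% of annotated cells, were kept. T-marker barcodes held UMIs of at least 2 T genes and no B gene. Pseudotime ranks were made for each mutant with WT, so a cell's own rank in its library was subtracted. Scripts used numpy 2.4.6, scipy 1.17.1 and pandas 2.3.3, and ratios were tested on simulated data. The members and lists were chosen with earlier results of these data known. Named genes were the 10 members, the 3 genes most like each, and the extreme genes of the cell cycle list with at least 50 UMIs. Coordinates are from GENCODE vM21 (GRCm38) by Ensembl identifier. Alternatives covered cells above the limit, doublets, thinning to 2000 UMIs, scaling, immunoglobulin genes, per-cell means, the UMI minimum and score classes.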

Additional observations from a re-analysis of the deposited data

Results flagged for a closer look

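Ccnb2 in CK against WT had opposite signs between subtypes, which is why it is listed here. Its log2 ratio was -0.34 in CB, 1.25 in trans cells and 1.66 in CC, each from 1 library per genotype, and the difference between subtypes was not tested. With the cells above the gene limit added, the values were 0.04, 0.42 and 0.89. Ccnb2 in CC was below the level of T-marker barcodes in all 4 libraries, with overlapping intervals in C and K, and WT CC held 9 UMIs of it.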

How the results depend on the processing

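No paired analysis was possible because each genotype is 1 library with no shared replicate number, and leaving out a replicate was not possible for the same reason. Of 803 alternative values for single genes, 743 stayed within the counting interval, 54 left it and 6 past 1.5-fold in annotated cells reversed. With those 6, 48 of the 803 changed sign. When the cells past the gene limit were included, the number of members past 1.5-fold became 0 in CB, 1 in trans cells and 6 in CC for C (2, 2 and 3 as reported; 7.25%, 7.79% and 10.9% of all genes with these cells), and 0 in CB, 2 in trans cells and 1 in CC for CK (3, 4 and 3 as reported; 9.58%, 9.61% and 10.9%). With these cells Ccnd2 in trans cells was past the fold and lower in C, at -0.62 (-1.65 to 0.36). It was also lower in K, at -1.28 (-2.34 to -0.28), and in CK, at -0.80 (-1.74 to 0.12). The 6 reversals came with the same cells: Ccne1 and Ccne2 in CB of C (-0.13 and -0.12), Ccnd2 and Ccna2 in CC of K (-0.35 and -0.18), and Ccne1 and Ccna2 in CC of CK (-0.53 and -0.21). Weighting by score class gave 0 members in CB of C, 1 in CB of K and 1 in trans cells of K (3 and 3 as reported in K). This setting left out classes with under 10 cells on either side, which removed the G2M-leading class in trans cells and CC. Thinning gave 1 in trans cells and 0 in CC of C. Without a UMI minimum CC of C had 5. Relative to the median of all genes, trans cells of K had 6, and the mean of per-cell CPM gave 5 in CB of CK. Shares of all genes were not counted under the score class, thinning, UMI minimum, median and per-cell settings, so these member counts have no background. The cause was not tested for any of these changes. The counts of CC over CB stayed within 1.5 times under every alternative, where the score class weighting left out G2M-leading cells. Depth limits Ccne1, Ccne2 and the CC values, with 7 to 14 UMIs of Ccne1 in CC and CB of WT.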
